A study of Mus musculus with 8 samples.

Results

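The 6 genes of the intestinal route of bile acids followed here were chosen by symbol: the uptake carrier Slc10a2, the cytosolic binding protein Fabp6, the export carrier subunits Slc51a and Slc51b, the hormone Fgf15 and the cell surface receptor Gpbar1. They were chosen with earlier results of these data known. All 6 have a row among the 45777 genes of the deposited table, matched by NCBI gene identifier. RNA was sequenced from liver and colon of mice in 4 groups. The control group was set beside NASH, a model of non-alcoholic steatohepatitis (fatty liver with inflammation). The 2 remaining groups received extracellular vesicles (EVs, membrane particles released by cells) of bovine colostrum, at a dose labelled low in one and high in the other. That the EV groups are NASH animals is taken from the series' design text. For strain, sex, age, diet, the amounts dosed, the time of treatment and any pooling of animals, the sources used here state nothing. There is 1 library per group and tissue, 8 in all, so each comparison describes 2 libraries. It carries no error and no test, and says nothing of how far animals of a group differ.

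Bile acids are made from cholesterol in the liver, pass with bile into the gut and are mostly recovered there. In the mouse the main site of recovery is the end of the small intestine, the ileum, and the colon recovers a smaller part. Slc10a2 (also called ASBT) carries bile acids across the brush border, Fabp6 binds them in the cytosol, and the Slc51a and Slc51b proteins (OST alpha and OST beta) pair to release them towards the blood. Inside the cell bile acids activate the nuclear receptor Nr1h4 (FXR), which raises Fabp6, Slc51a, Slc51b and Fgf15. Fgf15 travels to the liver, where it acts through Fgfr4 and Klb to lower Cyp7a1, the rate-limiting enzyme of bile acid synthesis. Gpbar1 (TGR5) senses bile acids at the surface of enteroendocrine cells, macrophages and other cells.

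In colon the 4 carrier genes were higher in the NASH library than in control, from 2.19-fold for Slc51b to 17.5-fold for Slc51a. Of all 15245 genes that reached 1 FPKM in a colon library, 2.43% were at least 2-fold higher. In the EV high dose library 3 carriers, Fabp6, Slc51a and Slc10a2, were at least 2-fold below NASH, beside 1.43% of all genes. In the EV low dose library none was 2-fold away from NASH, beside 2.85% of all genes in either direction. Each comparison uses the same NASH library. Fgf15 was listed at 0 in all 8 libraries and Gpbar1 did not exceed 0.199 FPKM. Levels are FPKM, fragment counts scaled to gene length and library size. Ratios are on the log2(FPKM + 1) scale, which understates the ratio of low genes, and folds are ratios of FPKM as deposited. A gene was called apart when its log2(FPKM + 1) ratio reached 2-fold.

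The bases before the start of the 4 carrier genes are printed because these genes were all lowest in the control library and higher in NASH, and factors known to act on bile acid genes bind in such regions. The sequences are the 250 bases before each start in RefSeq on GRCm38.p6 (mm10), the build the submitters' notes name, read 5′ to 3′ along the gene, which lies on the minus strand for all 4. The windows are chr8:5105288-5105537 for Slc10a2, chr11:43601563-43601812 for Fabp6, chr16:32487880-32488129 for Slc51a and chr9:65422774-65423023 for Slc51b. Capitals mark, in Fabp6, matches to IR-1, the inverted repeat that FXR binds. In Slc10a2 they mark a match to the palindrome bound by HNF1, and in Slc51a and Slc51b the motif AGGTCA on either strand.
Slc10a2: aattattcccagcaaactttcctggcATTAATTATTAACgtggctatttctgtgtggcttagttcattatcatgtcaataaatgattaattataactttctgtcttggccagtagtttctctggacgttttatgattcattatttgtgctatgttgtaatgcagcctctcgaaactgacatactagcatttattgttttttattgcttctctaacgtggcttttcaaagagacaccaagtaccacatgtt
Fabp6: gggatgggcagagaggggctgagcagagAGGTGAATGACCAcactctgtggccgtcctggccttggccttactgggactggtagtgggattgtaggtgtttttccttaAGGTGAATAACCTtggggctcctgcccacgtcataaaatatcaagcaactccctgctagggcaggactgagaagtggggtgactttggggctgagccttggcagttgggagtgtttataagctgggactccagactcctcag
Slc51a: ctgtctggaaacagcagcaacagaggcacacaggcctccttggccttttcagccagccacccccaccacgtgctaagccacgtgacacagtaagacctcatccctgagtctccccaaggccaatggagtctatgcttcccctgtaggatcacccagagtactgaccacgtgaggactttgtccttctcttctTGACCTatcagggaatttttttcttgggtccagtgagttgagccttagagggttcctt
Slc51b: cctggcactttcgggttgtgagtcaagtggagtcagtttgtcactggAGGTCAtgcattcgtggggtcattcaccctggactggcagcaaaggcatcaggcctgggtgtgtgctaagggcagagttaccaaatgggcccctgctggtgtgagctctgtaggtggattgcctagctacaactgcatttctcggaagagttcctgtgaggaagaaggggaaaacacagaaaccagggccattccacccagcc

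IR-1 was searched on both strands as AGGTCA, any base, then TGACCT, with at most 2 mismatches over its 12 set bases. Fabp6 held 2 matches with 2 mismatches each, at -222 to -210 and -142 to -130 counted from the gene start, and 0.959% of 32841 promoter windows of the same length held at least 1. The motif AGGTCA, which is contained in a perfect IR-1, stood at -58 to -53 in Slc51a on the minus strand and at -203 to -198 in Slc51b, and 14.0% of the windows held it. The HNF1 palindrome was searched as GTTAAT, any base, then ATTAAC, with the same limit on mismatches. Slc10a2 held 1 match with 1 mismatch at -224 to -212, and 1.24% of the windows held one. The CDX motif TTTATT occurred 3 times in Slc10a2, at -174, -62 and -52, and in 18.1% of the windows. The GATA motif AGATAA was found in none of the member windows and in 9.99% of all. Gpbar1 has a window in which none of these motifs was found. A match describes letters only.

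Slc10a2, the uptake carrier (NCBI gene 20494, chr8:5083219-5105287), was at 2.49 FPKM in control colon, 28.1 in NASH, 19.9 in EV low dose and 11.2 at EV high dose. The control library was the lowest and the NASH library the highest, with both EV libraries between them. NASH over control was 11.3-fold, a log2 ratio of 3.06, which ranked 30 from the top of the 15245 genes that reached 1 FPKM in at least 1 colon library. EV high dose was 2.50-fold below NASH (log2 ratio -1.25), and EV low dose lay at -0.48. Against control, EV low dose stood at 2.58 and EV high dose at 1.81 on the log2 scale.

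Fabp6 (NCBI gene 16204, chr11:43596040-43601562), the binding protein that shuttles bile acids through the ileal cell, was at 2.84 FPKM in control colon, 22.6 in NASH, 21.6 in EV low dose and 4.02 at EV high dose. NASH and EV low dose formed a high pair, and control and EV high dose a low pair. NASH over control was 7.98-fold (log2 ratio 2.62). EV low dose lay at -0.07 against NASH and EV high dose at -2.24, a level 5.63-fold lower. Between the doses the log2 ratio was -2.17, rank 12 from the bottom of 15245. EV high dose over control was 0.39, under 2-fold.

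Slc51a, the larger, membrane-spanning subunit of the exporter (NCBI gene 106407, chr16:32475578-32487879), had the widest span of the members. Its level was 2.11 FPKM in control colon, 36.9 in NASH, 23.8 in EV low dose and 7.88 at EV high dose. NASH over control was 17.5-fold (log2 ratio 3.61), rank 27 of 15245 from the top. EV high dose over NASH was -2.10, a level 4.69-fold lower, and EV low dose over NASH was -0.62. Both EV libraries stayed above control, with log2 ratios of 2.99 at the low dose and 1.51 at the high dose.

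Slc51b, the small partner subunit (NCBI gene 330962, chr9:65412753-65422773), moved least of the 4. It was at 15.2 FPKM in control colon, 33.4 in NASH, 43.2 in EV low dose and 24.8 at EV high dose, so its highest library was EV low dose and not NASH, an order that turns when ratios are taken relative to the pan-epithelial markers (EV low dose over NASH -0.05). NASH over control was 2.19-fold (log2 ratio 1.08), and over NASH the log2 ratio was 0.36 at the low dose and -0.41 at the high dose. Slc51b overlaps the neighbouring gene Rasl12, which was at 1.75 to 1.86 FPKM in the 4 colon libraries. Whether counting used strand is not given in the sources used here.

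**Figure D1:**
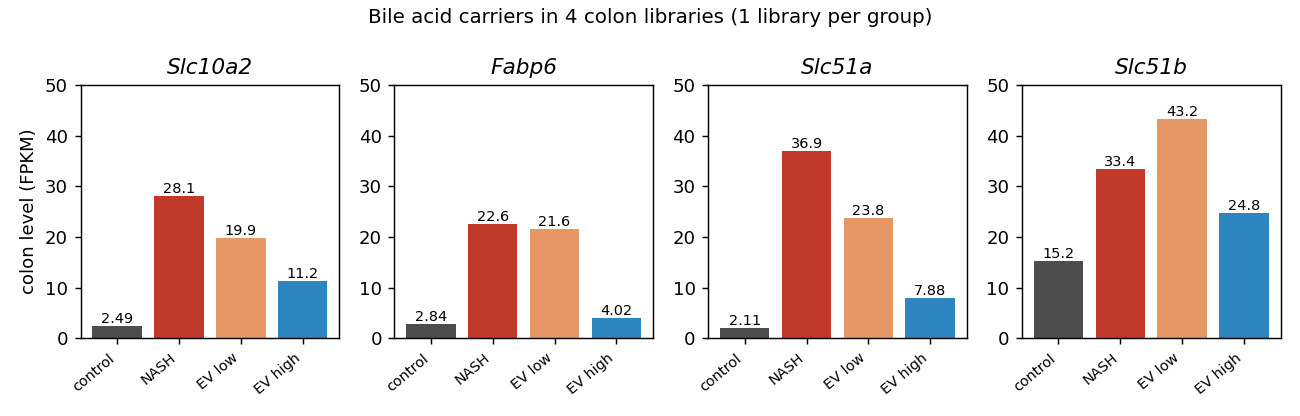
Level in FPKM (linear axis from 0) of Slc10a2, Fabp6, Slc51a and Slc51b in the colon libraries of control, NASH, EV low dose and EV high dose, 1 bar per library and no error bars because each group has 1 library. Control is the lowest bar for each gene, NASH is the highest for 3 of the 4, and EV low dose is the highest for Slc51b (43.2, an order that turns relative to the pan-epithelial markers).

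All 4 carriers reached 1 FPKM in every colon library, so none entered the comparison through a single high library. In NASH over control 4 of 4 were at least 2-fold higher, where 2.43% of the 15245 genes were. In EV low dose over NASH 0 of 4 were 2-fold apart, where 2.85% of genes were apart in either direction. In EV high dose over NASH 3 of 4 were lower, beside 1.43% of genes. These comparisons share the NASH library. The members were chosen with earlier results of these data known, so the counts here describe them and add no support. In EV high dose over EV low dose 2 of 4, Fabp6 and Slc51a, were lower, beside 0.682% of genes, with Slc10a2 at -0.77 and Slc51b at -0.78. Over control, 4 of 4 were higher at the low dose, beside 1.15% of genes, and 2 of 4 (Slc10a2 and Slc51a) at the high dose, beside 1.33%.

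**Figure D2:**
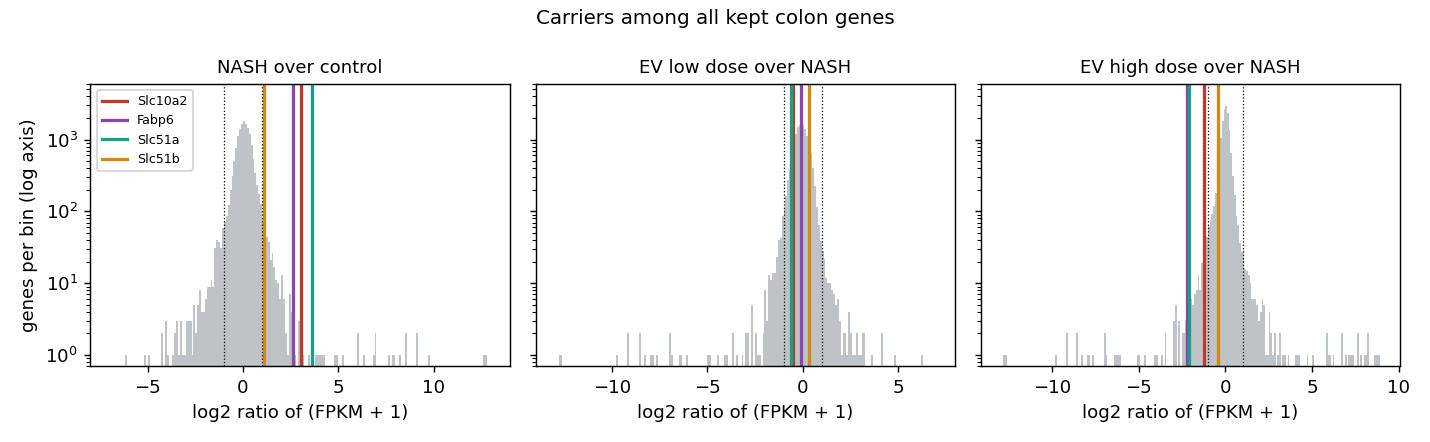
Distribution of log2 ratios of (FPKM + 1) over the 15245 colon genes (grey bars, number of genes per bin of 0.1 on a log axis) for NASH over control and for each EV dose over NASH, with the 4 carriers as coloured lines and 2-fold as dotted lines. The carriers lie at 1.08 to 3.61 in the first panel, at -0.62 to 0.36 in the second and at -2.24 to -0.41 in the third.

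The proportions between members differed between libraries as well. The 2 exporter subunits work as a pair, and Slc51a stood at 0.139 of the Slc51b level (FPKM, thus per length) in control colon. This ratio was 1.11 in NASH, 0.550 in EV low dose and 0.317 at EV high dose. Slc51a was therefore the lower subunit in 3 of the 4 colon libraries and slightly the higher one in NASH. For the binding protein against the uptake carrier, Fabp6 over Slc10a2 was 1.14 in control, 0.807 in NASH, 1.09 in EV low dose and 0.357 at EV high dose. The last library held clearly less Fabp6 per Slc10a2 than the others.

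Fgf15, the hormone of the route (NCBI gene 14170, chr7:144896532-144900953), was listed at 0 in all 4 colon and all 4 liver libraries, so no ratio can be given. Gpbar1 (NCBI gene 227289, chr1:74278600-74279589) was at 0.113 FPKM in control colon, 0.154 in NASH, 0.0865 in EV low dose and 0.199 at EV high dose. It did not reach 1 FPKM in any library and was not compared. Markers of enteroendocrine cells, one of the cell types known for Gpbar1, were present in colon, among them Pyy at 50.3 to 91.5 FPKM and Gcg at 21.1 to 38.9.

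The receptor that bile acids activate, Nr1h4, was at 27.6 FPKM in control colon, 49.5 in NASH, 41.4 in EV low dose and 32.6 at EV high dose, in the order of Slc10a2 and Slc51a but under 2-fold (log2 ratio 0.82 for NASH over control). Nr0b2 (SHP), a repressor induced by FXR, did not exceed 0.0823 FPKM in colon. Of 8 bile acid receptors and partners that reached 1 FPKM, 1 was 2-fold higher in NASH than control, beside 2.43% of all genes. None was lower, beside 1.97%, and the median log2 ratio was 0.45 beside 0.06 over all genes. The higher gene was Vdr, the vitamin D receptor, which also binds lithocholic acid. It was at 26.9, 62.5, 35.6 and 49.2 FPKM in control, NASH, EV low dose and EV high dose. None of the 8 was 2-fold apart between EV high dose and NASH, beside 2.53% of all genes.

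Among 11 regulators known from the ileum, 2 were higher in NASH than control and 0 lower, beside 2.43% and 1.97% of all genes. Ppara, a fatty acid receptor, was at 3.55 FPKM in control, 12.5 in NASH, 7.85 in EV low dose and 8.97 at EV high dose. Diet1, known for its effect on Fgf15 output, was at 1.75, 7.23, 5.22 and 4.11 in the same order. Gata4, which restrains Slc10a2 in the upper small intestine, did not exceed 0.245 FPKM. Of 10 other bile acid and sterol carriers of the gut, 0 were 2-fold apart in NASH over control, beside 4.4% of all genes. In EV high dose over NASH 0 were apart as well, beside 2.53%. One of them, the basolateral exporter Abcc3, was at 33.1, 38.6, 32.2 and 38.3 FPKM in the order given.

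Several marker lists moved with the carriers in colon. Posterior Hox genes, which mark the hind end of the gut, were present in every colon library with summed levels of 135 to 156 FPKM, and Hoxb13 alone was at 114 to 140. None of 6 was 2-fold apart in NASH over control, beside 4.4% of all genes. In EV high dose over NASH 1 of the 6 was lower (median -0.34), beside 1.43%. Of 8 anterior and middle Hox genes, 6 were higher in NASH than control (median log2 ratio 1.40), beside 2.43% of all genes. In EV high dose over NASH 4 of these Hox genes were lower, beside 1.43%. Their summed level was 16.4 FPKM in control, 53.5 in NASH, 24.2 in EV low dose and 24.2 at EV high dose. Hoxb6, the most abundant of them in NASH, was at 2.79, 14.5, 5.27 and 4.24. The Hox lists were added later than the other lists, and their part in the carriers' levels was not tested.

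Small intestinal enterocyte markers moved in part and not in 1 order. Of 14, 6 were higher in NASH than control (median 0.89), beside 2.43% of all genes. In EV high dose over NASH 2 were higher, beside 1.1% of all genes, and 2 lower, beside 1.43% (median 0.38). Mme and Enpep, brush border peptidases, were at 4.34 and 15.2 FPKM in NASH and at most 0.369 and 5.98 in the other libraries. Mme, called in both comparisons, reached 1 FPKM only in NASH, so its calls add no support. Sis, the sucrase of the small intestinal brush border, was at 0.314, 2.59, 1.90 and 0.970. Sis and Apoa1, also among the 6 higher in NASH, were under 1 FPKM in control. Some genes of lipid transport were instead highest in EV high dose. Apoa4 was at 0.0534, 1.05, 3.96 and 8.86 FPKM, Fabp1 at 0.420, 1.49, 1.64 and 4.39, and Apob at 8.98, 25.5, 26.6 and 34.0. Fabp2 and Apoc3, the latter under 1 FPKM throughout, were highest in EV low dose. The summed level of the list was 338 FPKM in control, 355 in NASH, 646 in EV low dose and 459 at EV high dose, mostly from Fabp2 at 253, 216, 496 and 297. Its defining lactase Lct did not exceed 0.256 FPKM. Of the 6 Paneth cell genes 3 reached 1 FPKM. In NASH over control 1 was higher and 1 lower, beside 2.43% and 1.97% of all genes. Mmp7, a protease that activates defensins and is also made by other epithelial cells, was at 0.291, 49.3, 1.22 and 0.549 FPKM, high in NASH alone. Itln1, a lectin that goblet cells also make, was at 72.5, 3.55, 38.5 and 146, and the lysozyme Lyz1 at 4.32 to 5.55. The defining defensins Defa17, Defa24 and Defa30 did not exceed 0.113. The part of these lists in the carriers' levels was not tested.

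Adipocyte genes were also highest in NASH. All 6 that reached 1 FPKM were higher in NASH than control (median 1.74), beside 2.43% of all genes. In EV high dose over NASH 5 of 6 were lower (median -2.11), beside 1.43%. Their summed level was 44.9 FPKM in control, 164 in NASH, 81.3 in EV low dose and 28.0 at EV high dose, with Adipoq at 5.31, 19.8, 9.63 and 3.16. Pancreatic enzyme genes were highest in EV high dose, with control next. They made up 0.0235% of the summed FPKM in control, 0.0102% in NASH, 0.0114% in EV low dose and 0.395% at EV high dose, and Cela2a was at 11.4, 0.269, 0.293 and 379 FPKM. Of 9, 8 were lower in NASH than control (median -2.58), beside 1.97% of all genes. In EV high dose over NASH 9 were higher, beside 1.1%. The part of the adipocyte and pancreatic genes in the carrier levels was not tested.

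Goblet cell genes went in part the other way from the carriers in NASH. Of 7, 3 were lower in NASH than control (median -0.96), beside 1.97% of all genes. Over NASH, 4 were higher in EV low dose, beside 0.905% of all genes, and 2 in EV high dose, beside 1.1%. Their summed level was 14081 FPKM in control, 6488 in NASH, 13363 in EV low dose and 12219 at EV high dose. The goblet cell product Clca1 was at 3915, 648, 3022 and 2807. Muc2 and Spdef of the same list were instead higher in NASH than control, both under 2-fold. Muc2 was at 1519, 1760, 1097 and 1854 FPKM and Spdef at 42.7, 57.2, 38.8 and 37.9. The part of the goblet cell genes was not tested either. Over all genes 4.4% were 2-fold apart in NASH over control. Pan-epithelial genes had 0 of 10 apart (median 0.00) and summed to 5637 to 7479 FPKM, and smooth muscle genes had 0 of 8 apart. Colonocyte genes, among them Car1 at 766 to 1404 FPKM, had 1 of 13 higher (median 0.24), beside 2.43% of all genes. In bulk tissue, fewer cells of a type and less RNA per cell cannot be told apart. Read depth is not given, and from the smallest steps of low values the NASH and EV low dose colon libraries had 0.918 and 1.19 times the depth of control, and EV high dose the depth of control within rounding.

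**Figure D3:**
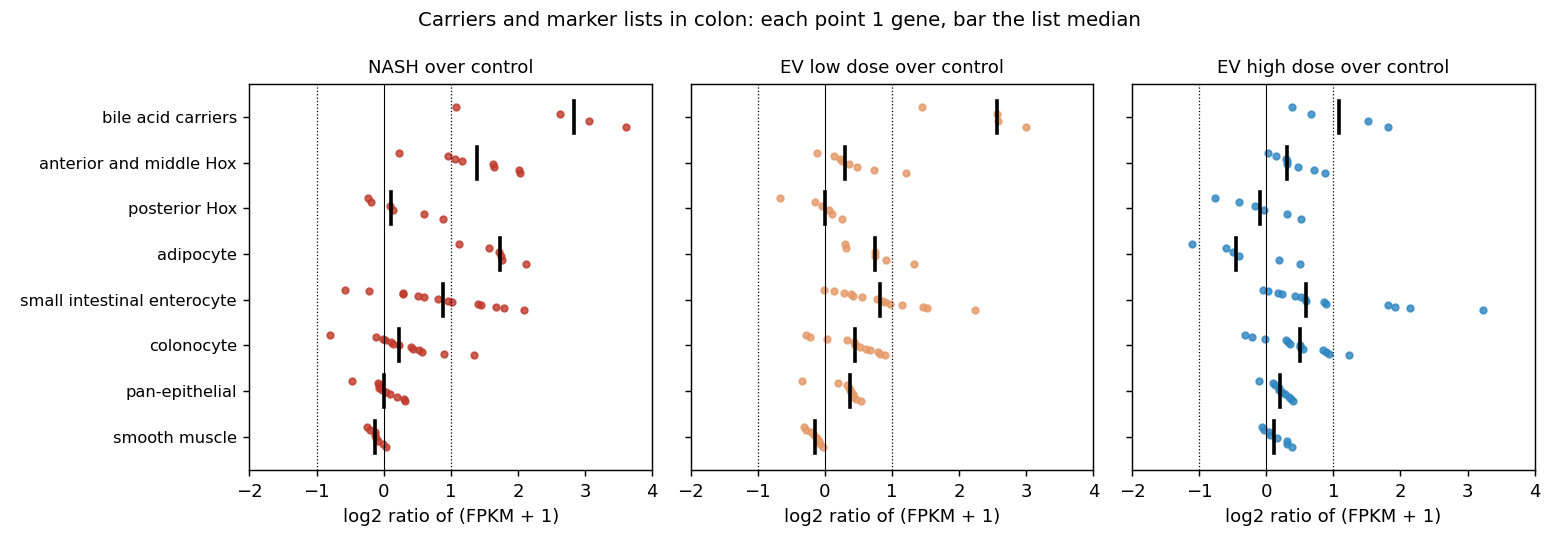
Log2 ratio of (FPKM + 1) over control in colon for NASH, EV low dose and EV high dose, with each point 1 gene, the black bar the list median and the dotted lines 2-fold. The carriers (4 genes) have medians of 2.84 in NASH, 2.57 with the low dose and 1.09 with the high dose. Anterior and middle Hox and adipocyte genes lie highest in NASH. In the same order the medians are 0.00, 0.38 and 0.21 for pan-epithelial genes and -0.13, -0.14 and 0.11 for smooth muscle genes. No gene of either list reaches 2-fold.

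The genes whose colon pattern was most like each member were taken by the root mean square difference of mean-centred log2 levels over the 4 libraries, among 12453 named protein-coding genes. For Slc10a2 these were Cyp4b1 (0.241), a fatty acid hydroxylase, Inmt (0.267), a methyltransferase, and Ugt1a1 (0.363), the bilirubin glucuronidating enzyme. Cyp4b1 was at 4.25 FPKM in control, 28.9 in NASH, 32.2 in EV low dose and 15.3 at EV high dose. For Slc51a the nearest were Cyp4b1 (0.474), Inmt (0.504) and Cyp2d26 (0.584), and Slc10a2 itself was closer at 0.336. For Fabp6 they were Dnase1l2 (0.422), the calcium binding protein S100g (0.462) and Cyp2d26 (0.475), with Slc51a at 0.448. Slc51b lay furthest from the other members, at 0.702 to 0.927, and its nearest genes were ccdc198 (0.130), Aspa (0.131) and Tmigd1 (0.137). Counted from Slc51b, the other members ranked 11579 to 12231 in likeness. Counted from Slc10a2, Fabp6 and Slc51a, however, Slc51b ranked 61, 34 and 60. The measure is not scaled for span, which was 1.45 log2 for Slc51b and 2.62 to 3.61 for the other members. With 4 libraries these are descriptions of likeness.

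In liver, Fabp6, Slc51a and Fgf15 were listed at 0 in all 4 libraries, and Gpbar1 did not exceed 0.0443 FPKM. Slc10a2, known there from the bile duct lining, was at 0.949 FPKM in control, 4.41 in NASH, 4.31 in EV low dose and 4.56 at EV high dose. Slc51b was at 0.660 in control, 4.09 in NASH, 4.81 in EV low dose and 3.57 at EV high dose. Control was the low library for both genes, and the other 3 lay close together, unlike colon, where EV high dose had 11.2 FPKM of Slc10a2 against 28.1 in NASH; that difference between tissues was not tested. Its partner Slc51a being listed at 0, Slc51b stood alone in liver.

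The median liver gene lay 0.55 log2 higher in NASH than in control, so liver ratios are given relative to it. NASH over control was then 0.92 for Slc10a2 and 1.06 for Slc51b (1.47 and 1.62 as deposited), so 1 of the 2 was called higher, beside 7.21% of 12866 liver genes. Both entered the comparison only through the NASH and EV libraries, having been under 1 FPKM in control, so the count adds no support. Over NASH the log2 ratios were 0.11 and 0.33 at the low dose and 0.18 and -0.02 at the high dose, with 0 of 2 apart beside 0.668% and 1.19% of genes. Over control both were called higher at each dose, beside 6.5% of genes at the low dose and 6.28% at the high dose.

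Cholangiocyte markers were also low in control liver. Epcam was at 0.276 FPKM in control and 1.37 to 1.61 in the other libraries, and Krt19 at 0.341 in control and 0.642 to 1.01 in the others. Of 5 such markers that reached 1 FPKM, 1 was higher in NASH than control (median 0.29), beside 7.21% of all liver genes. The markers summed to 15.2, 63.3, 45.9 and 52.4 FPKM, mostly from Spp1, which macrophages also express. Their part in the Slc10a2 and Slc51b levels was not tested. Kupffer cell genes, from another cell type known for Gpbar1, had 4 of 6 higher (median 1.07), beside 7.21% of all liver genes. Clec4f was at 33.4, 103, 106 and 112 FPKM.

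The liver side of the route, to which Fgf15 would signal, held 20 genes, of which 3 were higher and 10 lower in NASH than control (median -1.02 relative to the median gene), beside 7.21% and 7.66% of all liver genes. Among hepatocyte markers, 6 of 10 were lower (median -1.56), with Apoa2 at 12692, 3808, 4530 and 5320 FPKM, and their part was not tested. Cyp7a1 was at 9.52 FPKM in control, 57.8 in NASH, 70.7 in EV low dose and 88.9 at EV high dose, and Nr0b2 at 31.2, 11.5, 17.8 and 10.2. The co-receptor Klb was at 13.2 FPKM in control and 7.95 to 8.69 in the others, and the receptor Fgfr4 at 3.65, 3.85, 2.12 and 1.88. The hepatic uptake carrier Slc10a1, the liver relative of Slc10a2, was at 165 FPKM in control, 33.8 in NASH, 47.9 in EV low dose and 51.5 at EV high dose. Between EV high dose and NASH, 2 of the 20 were higher, beside 0.816% of all genes, and 0 lower: Cyp7b1, of the alternative synthesis route, and Slc27a5, which activates bile acids for conjugation.

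**Figure D4:**
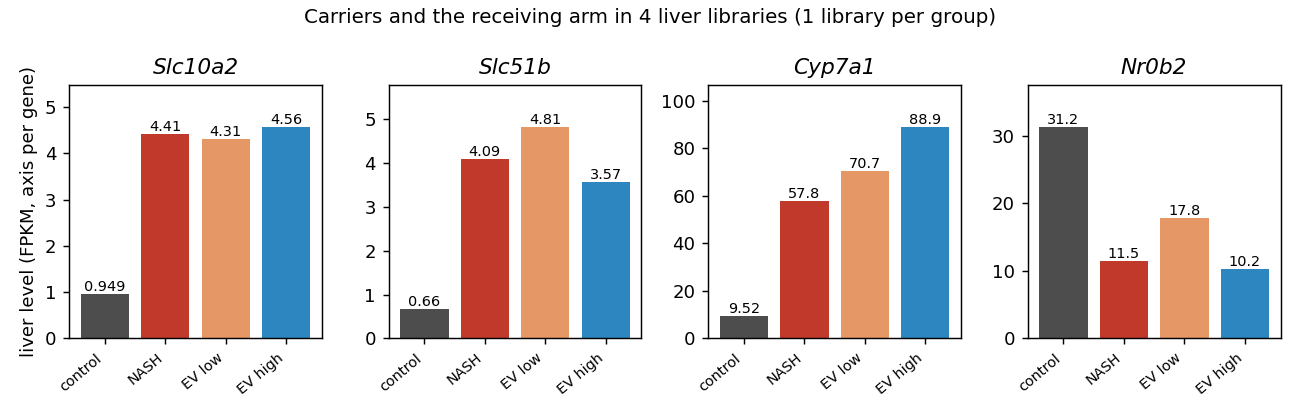
Liver level in FPKM (linear axes from 0, a separate axis for each gene) of Slc10a2, Slc51b, Cyp7a1 and Nr0b2 in the 4 liver libraries, 1 bar per library and no error bars. Control is the lowest bar for Slc10a2 (0.949), Slc51b (0.660) and Cyp7a1 (9.52) and the highest for Nr0b2 (31.2).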

How the data were processed

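The authors deposited 1 table of FPKM with 1 column per library. Per the submitters' processing notes, Trimmomatic 0.38, HISAT2, StringTie and mm10 were used; their order, the other versions and the strand setting were not given in the sources used here. Per the labels' protocols, RNA came from TRIzol and RNeasy Plus and libraries from a TruSeq Stranded Total RNA Gold kit. Of 45777 identifiers 45679 matched a RefSeq symbol of GRCm38.p6 and 98 did not. Groups come from the labels, and no library was left out.

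Ratios are of FPKM + 1 on the log2 scale. Genes reaching 1 FPKM in at least 1 of the 4 libraries of a tissue were kept: 15245 in colon, 12866 in liver. Liver ratios are relative to the median kept gene. With 1 library per group no test was run; 2-fold was the call. The members and the 21 gene lists were chosen with earlier results of these data known, and 2 Hox lists were added later. Named genes are the members, the bile acid receptors, up to 4 list genes with the largest ratios, the highest or defining genes of a list, and the 3 genes most like each member. Nr0b2, Gata4, Abcc3, Klb, Fgfr4 and others named with FPKM alone were chosen after their values were seen. Alternatives were pseudocounts of 0.1 and 5, 4 other scalings in colon and 3 in liver, no filter and a filter at 5 FPKM. The code was tested on simulated data. Python 3.11.15, numpy 2.4.6 and pandas 2.3.3 were used.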

Additional observations from a re-analysis of the deposited data

How the results depend on the processing

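Of 192 colon member ratios under the alternatives, 189 kept their side of 2-fold, and no ratio past 2-fold changed sign in colon or liver. Ratios under 2-fold changed sign 2 times in colon and 4 times in liver. In EV low dose over NASH, Fabp6 was 0.0079 with median-of-ratios scaling, Slc51b was -0.05 relative to the pan-epithelial markers, and liver Slc10a2 was -0.15 with same-sum scaling and -0.03 as deposited or without a filter. In EV high dose over NASH, liver Slc10a2 was -0.06 with same-sum scaling. Colon ratios that crossed 2-fold were Slc51b in NASH over control at 0.92 and Slc51a in EV high dose over control at 0.86, both with a pseudocount of 5, which left 1 member apart in EV high dose over control. Slc51a in EV low dose over NASH was -1.03 relative to the pan-epithelial markers, which made 1 member apart there. In liver 62 of 72 ratios kept their side. In NASH over control 2 members were apart in liver with a pseudocount of 0.1, median-of-ratios or same-sum scaling, as deposited or without a filter, and 0 with a pseudocount of 5, which also left 0 in EV low dose and EV high dose over control. A filter at 5 FPKM leaves no member in liver. The count of all colon genes apart depends on the pseudocount: in NASH over control it was 671, 1368 with 0.1 and 266 with 5, in EV low dose over NASH 435, 1075 and 143 (1354 relative to pan-epithelial markers), and in EV high dose over NASH 385, 749 and 157. In EV high dose over EV low dose it was 237, 644 and 80, and over control 441, 920 and 163 at the low dose and 396, 923 and 170 at the high dose. In liver NASH over control it was 1913, and 5123 with same-sum scaling. The share of these genes that were higher moved from 55.3% to 66.2% with same-sum scaling in colon NASH over control. Relative to pan-epithelial markers it moved from 31.7% to 4.80% in EV low dose over NASH, from 43.4% to 26.1% in EV high dose over NASH, from 56.1% to 78.5% between the doses, and over control from 39.7% to 9.38% at the low dose and 51.0% to 25.5% at the high dose. In liver NASH over control it was 48.5%, and 86.4% as deposited. With 1 library per group leaving out a replicate was not possible. No paired analysis was possible because each group has 1 library per tissue. Read depth is unknown, so low values carry no interval.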
